A study of Homo sapiens with 6 samples.

Results

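MHC class I molecules carry peptides from inside the cell to its surface, where T cells and natural killer cells inspect them. The genes described here encode 5 heavy chains of these molecules (HLA-B, HLA-C, HLA-E, HLA-F and HLA-G), their shared light chain beta-2-microglobulin (B2M) and 3 regulators of MHC transcription (NLRC5, RFX5 and CIITA). They were chosen by name, by matching the Ensembl identifiers of the count table without their version to GENCODE 29. Of the 9 listed genes, 8 had a row among the 18677 rows of the table, and all 8 passed the filter on low counts. CIITA, the transactivator of MHC class II genes, was not analysed here.

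The samples were H1299 cells, a human lung cancer line without functional p53. In 3 RNA-seq libraries the cells carried the guide RNA hSETDB1 sg1 against SETDB1 (SETDB1 knockout, SETDB1-KO), and in 3 libraries they carried the guide Control sg2 (control knockout). SETDB1 is an enzyme that places H3K9me3, a mark of silent chromatin, on histones. Both groups grew in RPMI-1640 with serum and puromycin, and each was made with 1 guide. The labels do not say whether the lines were pools or clones or whether the replicates were separate cultures, so p-values measure only the spread between these samples, which may be technical.

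Surface MHC class I needs a heavy chain, B2M and a peptide. HLA-B and HLA-C are classical heavy chains that present a wide range of peptides to CD8 T cells and are highly variable between people. HLA-E, HLA-F and HLA-G are non-classical; HLA-E presents leader peptides of other class I chains to natural killer cell receptors, and HLA-G is best known from the placenta. Transcription of most class I genes and of B2M runs through the SXY promoter module; HLA-G, whose module has diverged, is a known exception. The module is bound by the RFX complex (RFX5, RFXAP and RFXANK), by CREB1 or ATF1 and by NF-Y, and these proteins dock the transactivator NLRC5 for class I genes or CIITA for class II genes.

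SETDB1 itself stood at 40.6, 36.1 and 39.1 CPM (a gene's counts per 1000000 counts of its library, after scaling) in the SETDB1-KO libraries, against 45.0, 44.0 and 41.6 CPM in the control libraries. Its log2 fold change was -0.17 ± 0.06 (SE; edgeR adjusted p = 0.0151), and it missed the threshold once SETDB1-KO replicate 2 was left out (-0.13; edgeR adjusted p = 0.0896) or with library size alone as the scaling (-0.13; edgeR adjusted p = 0.0605). Edits that disrupt a protein can leave its mRNA in place, so this level is only a partial check of the labels. Libraries held 29532057 to 35941288 counts. The tested markers of an epithelial and mesenchymal tumour line were KRT8, KRT18, VIM and CDH2 (4 of 7 listed). They summed to 2678 to 2800 CPM in SETDB1-KO cells and to 3422 to 3608 CPM in control cells. All 4 were called lower by edgeR at an adjusted p under 0.05, where 31.6% of all genes tested were lower. In SETDB1-KO and control cells, KRT8 averaged 157 and 367 CPM and KRT18 332 and 599 CPM. CDH2 averaged 44.3 and 100 CPM and VIM 2216 and 2430 CPM, in the same order. EPCAM had 18 counts over the SETDB1-KO group and 25 over the control group. The markers of fibroblasts and endothelium (2 of 7 tested) summed to 0.733 to 0.936 CPM in SETDB1-KO cells. In control cells they summed to 1.45 to 1.74 CPM. Of the leukocyte markers, LYZ had 24 counts over each group. The part of these markers in the differences of the MHC genes was not tested.

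The measured members split evenly. NLRC5, B2M, HLA-B and HLA-C fell in SETDB1-KO cells, and HLA-F, RFX5, HLA-G and HLA-E rose. Thus 4 of 8 were lower and 4 higher by edgeR's quasi-likelihood test at an adjusted p under 0.05, where 31.6% of the 17675 genes tested were lower, 31.9% higher and 63.5% called in either direction. The median log2 fold change was -0.23 over the 8 members and 0.01 over all genes tested. The CPM ranges of the groups did not overlap for any of the 8 members (4 higher and 4 lower); this held for 66.8% of the genes tested, 33.5% higher and 33.3% lower. These are bulk libraries, in which fewer cells expressing a gene and less RNA per cell cannot be told apart.

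**Figure D1:**
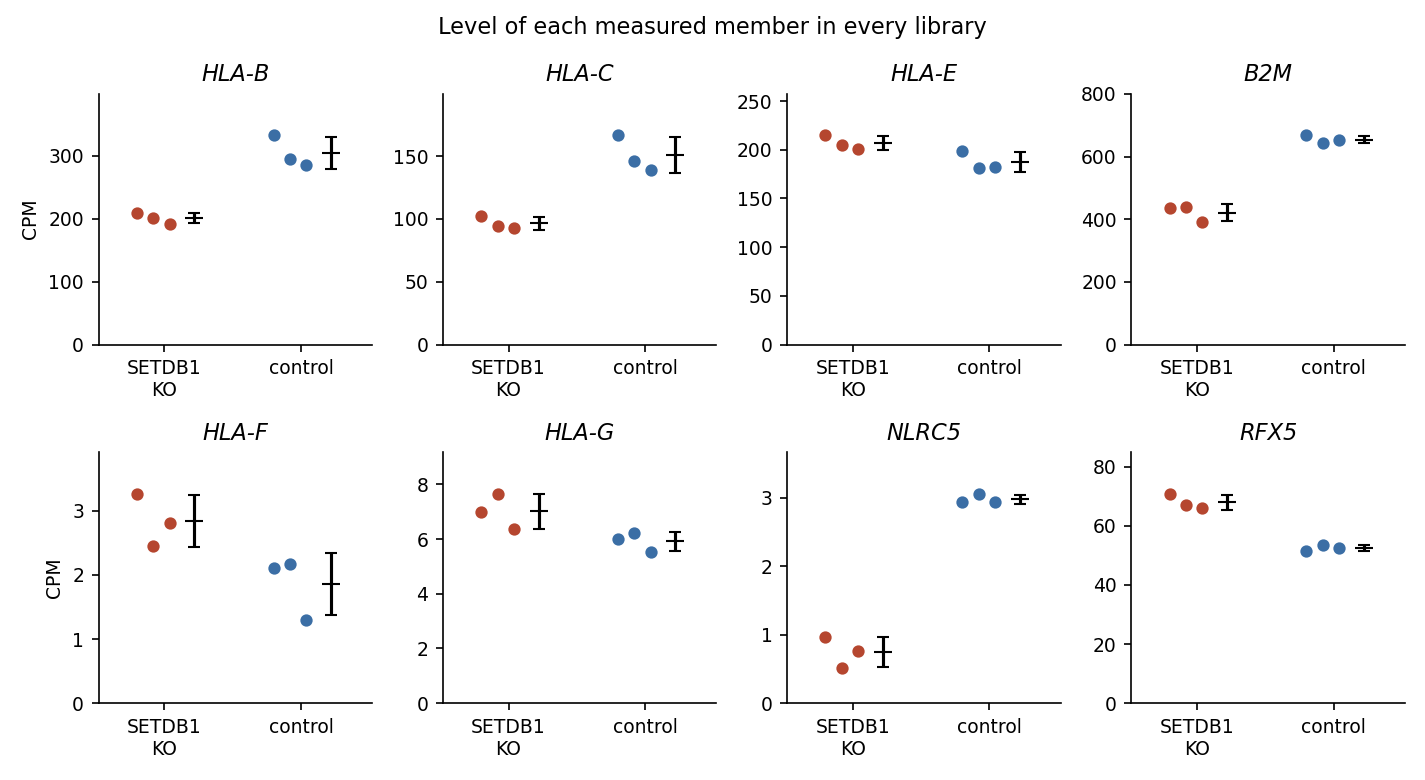
Levels of the 8 measured members in CPM (y axis, linear from 0, one scale per gene), with 3 SETDB1-KO libraries (red) left of 3 control libraries (blue) and the mean ± SD beside each group. The groups do not overlap for any member; HLA-E comes closest, with the lowest SETDB1-KO library at 201 CPM and the highest control library at 199 CPM.

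NLRC5, the transactivator that switches on class I genes, showed the steepest difference among the members. It is on chromosome 16 (GRCh38, 56989485 to 57083531, ENSG00000140853). It had 29, 18 and 26 counts (0.966, 0.520 and 0.761 CPM) in the SETDB1-KO libraries, against 88, 97 and 104 counts (2.94, 3.06 and 2.94 CPM) in the control libraries. All 3 SETDB1-KO libraries were below 1 CPM and the control libraries lay close together near 3 CPM. NLRC5 fell by 2.003 ± 0.18 on the log2 scale (edgeR adjusted p = 1.10e-08), a 4.01-fold lower level, and it was the only member whose difference exceeded 1.5-fold in a test against that fold (edgeR glmTreat). A called fall of at least 4-fold was seen for 1.07% of the genes tested; the NLRC5 log2 fold change lay between -2.21 and -1.795 when 1 library was left out, so it did not always reach that size. The transcript was scarce in both groups.

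The 3 genes nearest to NLRC5 in pattern, out of 14691 with at least 1 CPM, were SYTL4, C1orf226 and WNK4, by Euclidean distance over the 6 libraries in log2(CPM + 0.5) centred on each gene's mean (distances 0.186, 0.222 and 0.245). SYTL4, a synaptotagmin-like regulator of vesicle secretion, averaged 2.23 ± 0.471 CPM in SETDB1-KO cells and 7.04 ± 0.386 CPM in control cells (SD, n = 3 each). C1orf226 averaged 0.975 ± 0.257 CPM in SETDB1-KO cells and 3.60 ± 0.252 CPM in control cells. WNK4, a kinase that regulates ion transport, averaged 3.64 ± 0.499 CPM in SETDB1-KO cells and 12.1 ± 0.619 CPM in control cells.

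RFX5 (chromosome 1, 151340640 to 151347357, ENSG00000143390) encodes a DNA-binding subunit of the RFX complex. It stood at 70.8, 66.9 and 65.9 CPM in the SETDB1-KO libraries, against 51.6, 53.5 and 52.5 CPM in the control libraries. Every SETDB1-KO library was above every control library. RFX5 rose by 0.37 ± 0.05 on the log2 scale (SE; edgeR adjusted p = 3.98e-06), so that the 2 measured regulators differed in opposite directions. An antisense RNA, AL391069.3, shares 93 exon bases with RFX5 and also rose, by 0.77 ± 0.20 (SE; edgeR adjusted p = 0.00266); it averaged 1.30 ± 0.0881 CPM in SETDB1-KO cells and 0.763 ± 0.133 CPM in control cells. No source used here says whether reads were counted by strand, so reads of such antisense pairs cannot be told apart.

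HLA-B (chromosome 6, annotated span 31269491 to 31357188, ENSG00000234745) stood at 209, 201 and 193 CPM in the SETDB1-KO libraries, against 333, 295 and 286 CPM in the control libraries. The lowest control library was well above the highest SETDB1-KO library. HLA-B fell by 0.60 ± 0.06 on the log2 scale (SE; edgeR adjusted p = 4.28e-08), a 1.52-fold lower level.

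HLA-C (chromosome 6, 31268749 to 31272130, ENSG00000204525) stood at 103, 94.4 and 92.8 CPM in the SETDB1-KO libraries, against 166, 146 and 139 CPM in the control libraries. It fell by 0.64 ± 0.06 on the log2 scale (SE; edgeR adjusted p = 4.09e-08), close to the fall of HLA-B. The annotated span of HLA-B overlaps that of HLA-C, and the 2 genes share 35 exon bases. Reads of class I genes can match more than 1 of them, and reads of alleles unlike the reference can be lost, so the separate levels of the heavy chain genes are uncertain.

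B2M (chromosome 15, 44711487 to 44718877, ENSG00000166710), which every class I heavy chain binds, stood at 436, 438 and 390.1 CPM in the SETDB1-KO libraries, against 668, 642 and 653 CPM in the control libraries. No library of one group came near the other. B2M fell by 0.64 ± 0.06 on the log2 scale (SE; edgeR adjusted p = 8.89e-09), 1.55-fold, a size like that of HLA-B and HLA-C although it lies on another chromosome.

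HLA-E (chromosome 6, 30489467 to 30494205, ENSG00000204592) did not share this fall. It stood at 215, 204 and 201 CPM in the SETDB1-KO libraries, against 199, 181 and 183 CPM in the control libraries. The difference was small, 0.14 ± 0.05 on the log2 scale (SE; edgeR adjusted p = 0.0312). The call was lost when 1 library was left out in 5 of 6 cases: without SETDB1-KO replicate 1 (0.0972), replicate 2 (0.0657) or replicate 3 (0.0535), and without control replicate 2 (0.199) or replicate 3 (0.0729; edgeR adjusted p in each case).

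HLA-F and HLA-G were far scarcer. HLA-F (chromosome 6, 29722775 to 29738528, ENSG00000204642) had 98, 85 and 96 counts (3.27, 2.46 and 2.81 CPM) in the SETDB1-KO libraries, against 63, 69 and 46 counts (2.10, 2.18 and 1.30 CPM) in the control libraries. It rose by 0.62 ± 0.18 on the log2 scale (SE; edgeR adjusted p = 0.00431), and by 0.40 without control replicate 3, its lowest library (edgeR adjusted p = 0.0407). The antisense RNA HLA-F-AS1 shares 535 exon bases with it and rose by the same amount, 0.62 ± 0.16 (SE; edgeR adjusted p = 0.00208); it averaged 2.44 ± 0.375 CPM in SETDB1-KO cells and 1.58 ± 0.103 CPM in control cells.

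HLA-G (chromosome 6, 29826967 to 29831125, ENSG00000204632) stood at 6.9985, 7.66 and 6.38 CPM in the SETDB1-KO libraries, against 6.01, 6.21 and 5.54 CPM in the control libraries. Its log2 fold change was 0.25 ± 0.10 (SE; edgeR adjusted p = 0.0316). It missed the threshold once SETDB1-KO replicate 2 (0.17; edgeR adjusted p = 0.177) or control replicate 3 (0.20; edgeR adjusted p = 0.123) was left out, and with DESeq2 (adjusted p = 0.0887).

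Levels of different genes were compared as CPM per kilobase of annotated exon length. In SETDB1-KO cells, HLA-E (69.5 ± 2.42), B2M (69.3 ± 4.46) and HLA-B (65.8 ± 2.63) led, followed by HLA-C (38.5 ± 2.09), RFX5 (14.8 ± 0.563), HLA-G (3.98 ± 0.362), HLA-F (0.655 ± 0.0936) and NLRC5 (0.0605 ± 0.0180; SD, n = 3 throughout). The ranges of the first 3 overlapped across libraries, but within each of the 3 SETDB1-KO libraries HLA-E and B2M were both above HLA-B, while HLA-E was above B2M in 2 of 3. In control cells, B2M (108 ± 2.08) and HLA-B (99.8 ± 8.12) led on the same scale, followed by HLA-E (63.0 ± 3.35) and HLA-C (60.0 ± 5.70). Within each of the 3 control libraries B2M was above HLA-B and HLA-E above HLA-C, although the ranges of each pair overlapped across libraries. Then came RFX5 (11.5 ± 0.207), HLA-G (3.36 ± 0.197), HLA-F (0.428 ± 0.112) and NLRC5 (0.240 ± 0.00569). With the longest coding transcript as the length, B2M was first in both groups (247 ± 15.9 in SETDB1-KO cells and 384 ± 7.42 in control cells) and HLA-B second (130 ± 5.18 in SETDB1-KO cells and 197 ± 16.01 in control cells). HLA-E (79.5 ± 2.76) then lay above HLA-C (62.2 ± 3.38) in SETDB1-KO cells but below it in control cells (72.1 ± 3.83 for HLA-E and 96.9 ± 9.20 for HLA-C).

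The mix of heavy chain transcripts differed between the groups. HLA-E held 40.2 ± 0.280% of the summed counts of the 5 heavy chain genes in SETDB1-KO cells and 28.9 ± 0.795% in control cells (SD, n = 3 each). HLA-B held 39.1 ± 0.326% in SETDB1-KO cells and 46.8 ± 0.279% in control cells, and HLA-C 18.8 ± 0.322% in SETDB1-KO cells and 23.1 ± 0.487% in control cells. HLA-G held 1.36 ± 0.118% in SETDB1-KO cells and 0.912 ± 0.0673% in control cells, and HLA-F 0.5525 ± 0.0651% in SETDB1-KO cells and 0.285 ± 0.0674% in control cells. The summed level of the 5 genes was 514 ± 20.6 CPM in SETDB1-KO cells and 650.4 ± 49.1 CPM in control cells.

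**Figure D2:**
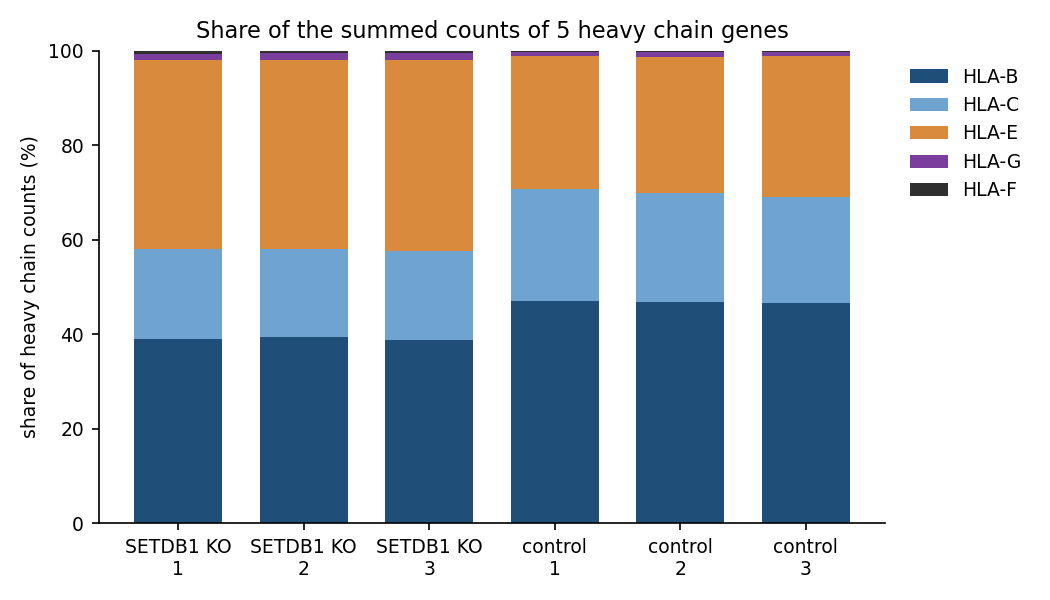
Share of the summed counts of 5 heavy chain genes held by each gene (y axis, percent), with 1 bar per library and the 3 SETDB1-KO libraries left of the 3 control libraries. The HLA-E share averages 40.2% in SETDB1-KO cells and 28.9% in control cells, and the shares of HLA-B and HLA-C are smaller in SETDB1-KO cells.

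Ratios of counts within a library do not depend on scaling, and 5 were examined. HLA-E had 1.03, 1.02 and 1.04 counts per HLA-B count in the SETDB1-KO libraries, against 0.598, 0.613 and 0.639 in the control libraries. The groups did not overlap (two-sided exact permutation p = 0.1, the smallest that 3 against 3 allows, and 0.167 after Benjamini-Hochberg adjustment over the 5 ratios). HLA-E was higher and HLA-B lower without overlap in the same libraries, so this ratio had to separate the groups. Its p therefore adds no support. HLA-B had 2.03, 2.13 and 2.07 counts per HLA-C count in SETDB1-KO cells, against 1.999, 2.02 and 2.06 in control cells, and these ranges overlapped (exact permutation p = 0.2, adjusted 0.25). B2M had 2.10 ± 0.0747 counts per HLA-B count in SETDB1-KO cells and 2.16 ± 0.140 in control cells, also with overlap (exact permutation p = 0.7, adjusted 0.7). Per summed count of HLA-B, HLA-C and HLA-E, B2M had 0.836 ± 0.0369 counts in SETDB1-KO cells and 1.02 ± 0.0604 in control cells, without overlap (exact permutation p = 0.1, adjusted 0.167).

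Each member was set beside the genes around it. The neighbourhood value is the median log2 fold change of the 25 tested genes on each side with a log2 CPM above 3. It was 0.39 around both HLA-B and HLA-C, which fell, so they went against their surroundings. MICA and MICB, the nearest coding genes beyond HLA-B, were looked up after their values were seen. MICA, a stress-induced ligand of natural killer cells, had a log2 fold change of 0.11 ± 0.06 (SE; edgeR adjusted p = 0.108, 0.0206 without control replicate 1, and 0.024 with library size alone as the scaling), and its relative MICB one of -0.01 ± 0.06 (SE; edgeR adjusted p = 0.883). The neighbourhood of NLRC5 had a median of 0.25, also opposite to the gene.

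For B2M the neighbourhood median was -0.33, in the direction of its own fall, and B2M stood at -0.30 on the log2 scale with this median taken out. Around HLA-E it was 0.19, larger than the rise of HLA-E, which stood at -0.052 with the median taken out. Around HLA-F and HLA-G it was 0.18, which left HLA-F at 0.44 and HLA-G at 0.065, and around RFX5 it was 0.13. In the MHC stretch of chromosome 6 from SUMO2P1 to MYL8P, with bounds set with the data in view and members included, 79 of 125 tested genes rose and 12 fell, with a median of 0.32. Of these 125 genes, 72.8% were called in either direction, against 63.5% of all genes tested (31.9% higher and 31.6% lower). Whether copy number of these stretches differed between the lines was not tested.

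**Figure D3:**
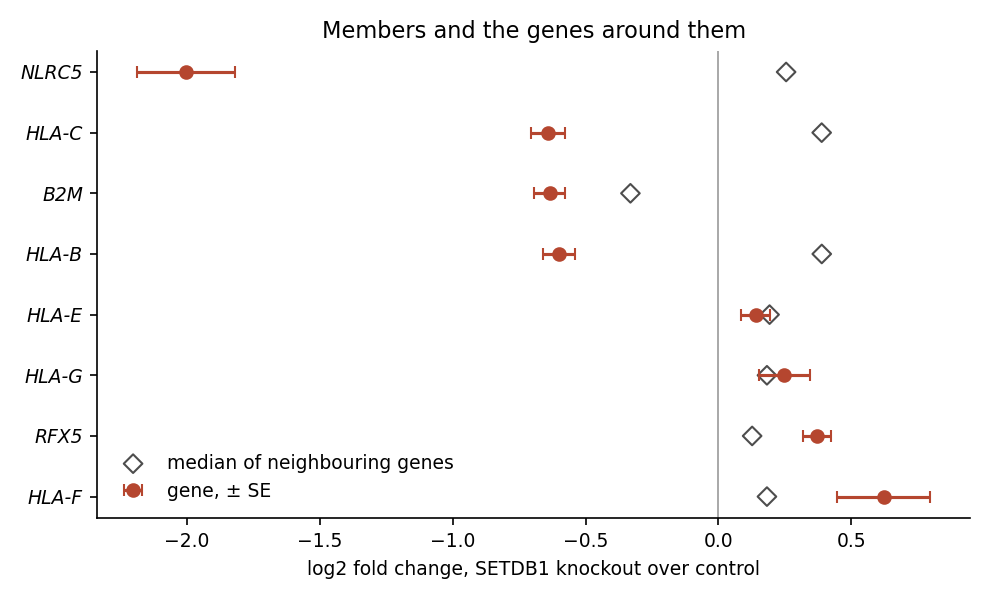
Log2 fold change of each measured member, SETDB1 knockout over control (x axis; filled circles with SE), with the median log2 fold change of the genes around it (open diamonds). HLA-B, HLA-C and NLRC5 lie below 0 while their neighbourhoods lie above 0; B2M lies below a neighbourhood that is itself below 0, and HLA-E and HLA-G lie near theirs.

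The promoters of B2M and of the heavy chain genes with an entry in the RefSeq table (GRCh38.p14) are shown. B2M and most class I genes share the SXY class of promoter, and both falling and rising genes are among those shown. The part of these sequences in the differences was not tested. HLA-E and NLRC5 had no entry. Each line runs 5′ to 3′ on the gene's strand and lies just upstream of the annotated start. Capitals mark matches, on either strand, to GATTCNCC (part of the NF-kB motif of the class I enhancer A), TTTCNNTT (the core of an interferon-stimulated response element), TGACG (part of the site of CREB and ATF factors) and CCAAT (the NF-Y motif).
HLA-B, chr6:31357221-31357365, minus strand: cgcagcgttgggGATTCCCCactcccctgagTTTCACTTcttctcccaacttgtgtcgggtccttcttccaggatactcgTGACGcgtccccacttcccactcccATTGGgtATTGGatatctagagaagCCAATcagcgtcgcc
HLA-C, chr6:31272134-31272278, minus strand: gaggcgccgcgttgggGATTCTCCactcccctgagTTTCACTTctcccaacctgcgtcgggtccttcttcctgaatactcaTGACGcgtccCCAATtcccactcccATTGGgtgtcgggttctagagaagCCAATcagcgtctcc
B2M, chr15:44711331-44711475, plus strand: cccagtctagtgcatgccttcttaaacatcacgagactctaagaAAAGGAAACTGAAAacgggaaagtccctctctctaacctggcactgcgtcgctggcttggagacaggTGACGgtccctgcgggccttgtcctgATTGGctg
HLA-F, chr6:29723248-29723392, plus strand: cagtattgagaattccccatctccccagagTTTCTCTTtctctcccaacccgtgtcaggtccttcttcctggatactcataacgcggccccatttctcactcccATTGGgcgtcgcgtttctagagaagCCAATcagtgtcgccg
HLA-G, chr6:29827639-29827783, plus strand: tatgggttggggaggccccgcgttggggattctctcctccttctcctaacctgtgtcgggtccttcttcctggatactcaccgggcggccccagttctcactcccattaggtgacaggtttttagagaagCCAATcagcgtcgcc

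Over the whole windows of 300 bases (250 before the start to 50 after it), HLA-B and HLA-C held all 4 motifs and B2M held 3, with 2 overlapping matches of TTTCNNTT. HLA-F held 2 of the 4, TTTCNNTT and CCAAT. HLA-G held CCAAT alone at the most downstream of its 3 annotated starts, the one shown, and none of the motifs at the other 2. The 3 windows of RFX5 held 1 or 2 motifs each. Among 35116 promoter windows of this length, 2.57% held GATTCNCC, 22.8% TTTCNNTT, 24.6% TGACG and 34.6% CCAAT. The letters were chosen with these promoters in view, and a match is a description of the sequence, not a measured binding site.

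Of the other subunits that bind the SXY module, 2 rose, 2 fell and 3 did not pass the test among 7. Among all genes tested, 31.9% were higher, 31.6% lower and 63.5% called in either direction. RFXANK, the partner of RFX5 in the RFX complex, rose to 38.9, 37.9 and 37.4 CPM in the SETDB1-KO libraries, against 29.6, 28.98 and 29.005 CPM in the control libraries, a log2 fold change of 0.38 ± 0.06 (SE; edgeR adjusted p = 5.00e-06). NFYA, the DNA-contacting subunit of NF-Y, rose by 0.34 ± 0.05 and NFYB, one of its histone-fold subunits, fell by 0.28 ± 0.07 on the log2 scale. ATF1, a CREB family factor, fell by 0.46 ± 0.08 (edgeR adjusted p = 8.43e-04 or lower for these 3).

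A list of 14 genes held interferon and NF-kB inputs to class I promoters together with the E-box factors USF1 and USF2. Of these 14, 8 fell, 2 rose and 4 did not pass the test, with a median log2 fold change of -0.20. The shares over all genes tested were 31.6% lower and 31.9% higher, with a median of 0.01. JAK1, the kinase shared by interferon receptors, fell to 90.2 ± 1.67 CPM in SETDB1-KO cells, against 143 ± 6.67 CPM in control cells, a log2 fold change of -0.66 ± 0.05 (SE; edgeR adjusted p = 1.32e-09). RELB, an NF-kB subunit, fell by 0.88 ± 0.06 and USF2, an E-box factor, by 0.82 ± 0.05 on the log2 scale (edgeR adjusted p of 6.50e-11 or lower); their neighbourhoods on chromosome 19 had medians of -0.78 and -0.90. IFNGR2, a chain of the interferon gamma receptor, rose by 0.46 ± 0.05 (edgeR adjusted p = 1.81e-07), and NFKB1, which encodes p105 and p50, by 0.12 ± 0.05 (edgeR adjusted p = 0.0479). The NFKB1 call was lost on leaving out any single library but control replicate 3 (edgeR adjusted p = 0.0823 to 0.194), without the filter on low counts (0.0523) and with DESeq2 (0.0724).

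Genes of peptide supply and loading rose in 7 and fell in 4 of 14, with 3 not passing the test and a median of 0.14. By comparison, 31.9% of all genes tested were higher and 31.6% lower, and 63.5% were called in either direction. TAP1, a subunit of the peptide transporter, stood at 160.1, 149 and 149 CPM in the SETDB1-KO libraries, against 95.0, 83.0 and 83.9 CPM in the control libraries. It had 0.760 ± 0.0175 counts per HLA-B count in SETDB1-KO cells and 0.287 ± 0.00647 in control cells (exact permutation p = 0.1, adjusted 0.167). TAP1 was higher and HLA-B lower without overlap, so this p was fixed in advance and adds no support. PSMB9, an immunoproteasome subunit, rose by 1.45 ± 0.11 on the log2 scale, while the neighbouring immunoproteasome gene PSMB8 fell by 1.00 ± 0.07 (edgeR adjusted p of 4.71e-10 or lower). The annotated span of PSMB9 contains that of TAP1 and overlaps that of PSMB8. Whether reads of TAP1, the far more abundant gene, entered the PSMB9 counts was not tested.

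CALR, the chaperone calreticulin that holds new heavy chains, rose by 0.74 ± 0.06 on the log2 scale (edgeR adjusted p = 3.49e-09), to 1415 ± 64.1 CPM in SETDB1-KO cells against 849 ± 64.2 CPM in control cells. ERAP2, a peptide-trimming protease, fell by 0.36 ± 0.09 (edgeR adjusted p = 0.00175), and TAPBPL, a peptide editor, by 0.36 ± 0.15 (edgeR adjusted p = 0.0389). The TAPBPL call was lost on leaving out replicate 1 or 2 of either group (edgeR adjusted p = 0.0702 to 0.137), with library size alone (0.0678) and with DESeq2 (0.122).

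Among 12 class II genes and chaperones, 3 were abundant enough to test and all 3 rose, at low levels. The shares over all genes tested were 31.9% higher, 31.6% lower and 63.5% called in either direction. HLA-DMA, a chain of the HLA-DM chaperone that loads peptides on class II molecules, averaged 3.25 ± 0.322 CPM in SETDB1-KO cells and 0.950 ± 0.137 CPM in control cells, a log2 fold change of 1.76 ± 0.16 (SE; edgeR adjusted p = 1.31e-08). Its partner chain HLA-DMB averaged 1.602 ± 0.279 CPM in SETDB1-KO cells and 0.333 ± 0.125 CPM in control cells, a log2 fold change of 2.26 ± 0.26 (SE; edgeR adjusted p = 3.07e-07). HLA-DOB, a modulator of that loading, averaged 0.547 ± 0.0435 CPM in SETDB1-KO cells and 0.2096 ± 0.0636 CPM in control cells (edgeR adjusted p = 0.00122). A gene passes the filter when it is high in either group, so this count of risers is no support for a direction of the list.

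Of the class I-like molecules, 2 rose and 4 did not pass the test among 6 tested, where 31.9% of all genes tested were higher. FCGRT, the heavy chain of the neonatal Fc receptor, rose by 0.61 ± 0.07 on the log2 scale in a stretch of chromosome 19 with a median of 0.67. HFE, a regulator of iron uptake, rose by 0.60 ± 0.07 with a neighbourhood median of -0.01 (edgeR adjusted p of 2.36e-07 or lower for both). Both proteins pair with B2M, which fell. Among class I pseudogenes and transcripts of the region, HLA-L rose by 0.42 ± 0.10 (edgeR adjusted p = 0.00158), HLA-F-AS1 rose as given above, and 2 others did not pass the test. DEXI, whose exons overlap 2416 exon bases of CIITA on the opposite strand, averaged 11.8 ± 0.422 CPM in SETDB1-KO cells and 10.3 ± 0.215 CPM in control cells (log2 fold change 0.19 ± 0.07; edgeR adjusted p = 0.0329). The DEXI call was lost on leaving out any single library but SETDB1-KO replicate 1 (edgeR adjusted p = 0.0675 to 0.105) and with DESeq2 (0.0968).

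**Figure D4:**
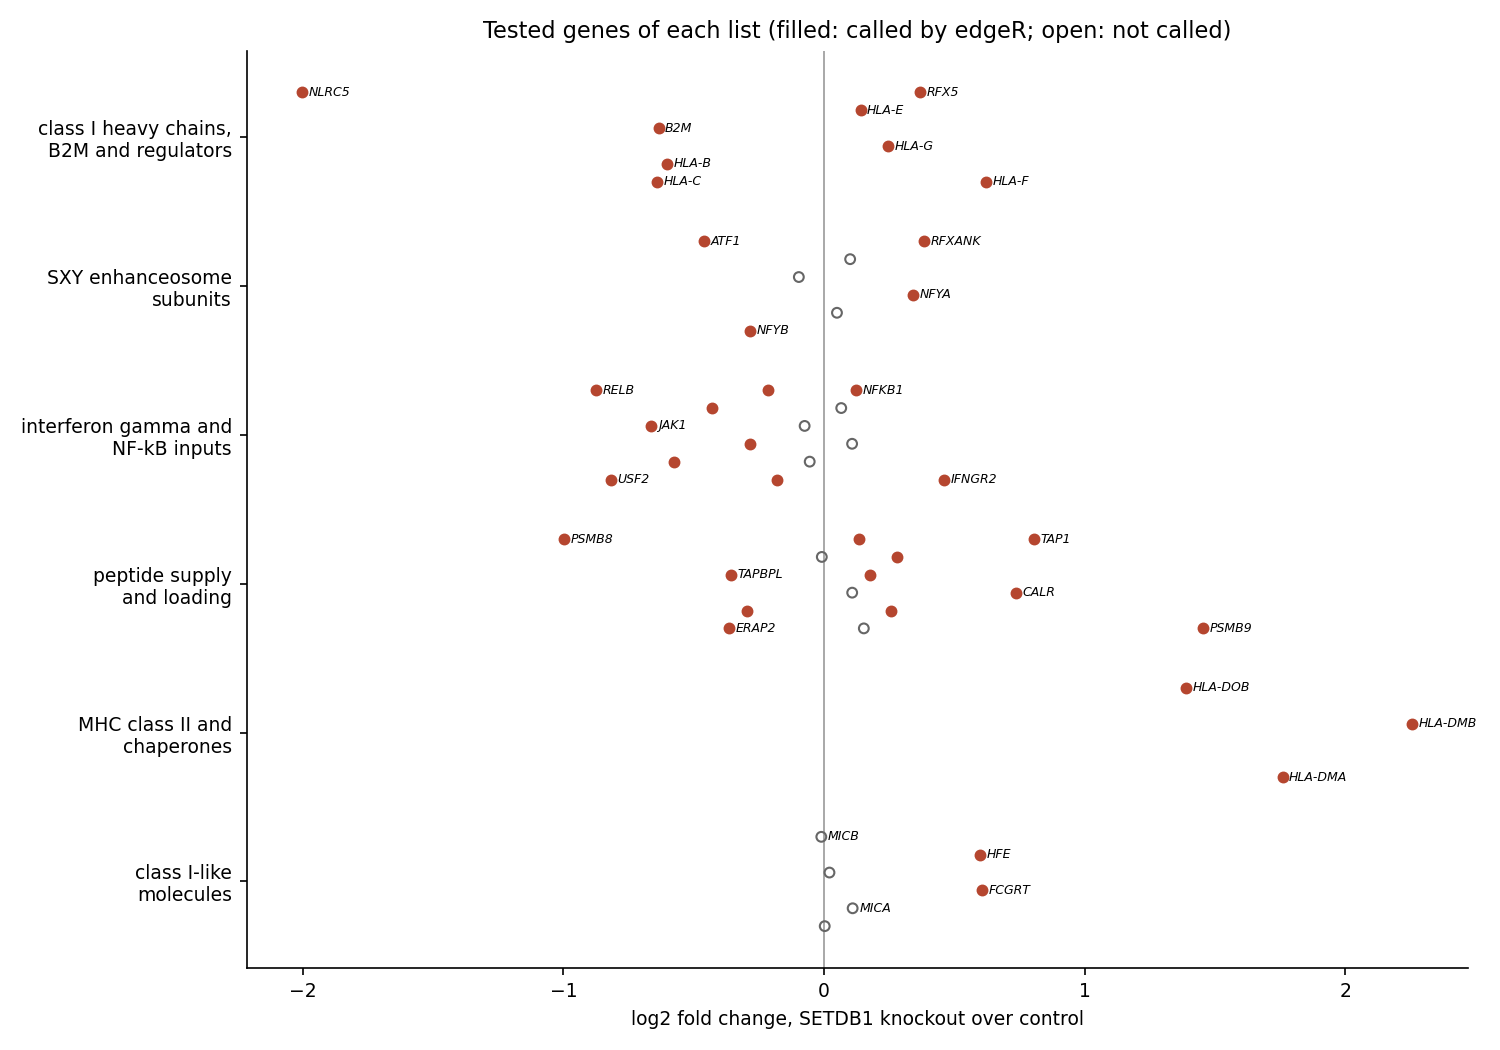
Log2 fold change, SETDB1 knockout over control (x axis), of the tested genes in 6 lists (rows). Height within a row only separates points. Labels mark the genes whose values the text gives, except IFNGR1 and CANX. Points are filled where called by edgeR at an adjusted p under 0.05 and open where not. NLRC5 lies lowest at -2.003 and HLA-DMB highest at 2.26, and each of the first 4 lists has called genes on both sides of 0.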

How the data were processed

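Raw read counts per gene were deposited by the authors as a single table. Per the submitters' processing notes, FastQC, TopHat2, HTSeq and GRCh38.p7 were used; program settings, strand handling and the treatment of multiply matching reads were not given in the sources used here. Every row had at least 11 counts in some library.

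Genes were kept by filterByExpr (17675 kept, 1002 removed) and libraries scaled by TMM; 1 count was 0.0282 to 0.0334 CPM. SETDB1 knockout was tested against control in R 4.3.3 with edgeR 4.0.16 (robust glmQLFit, glmQLFTest) and Benjamini-Hochberg adjustment over all genes tested. The SE is the log2 fold change over the root of F. Replicates differed by more than counting error (chi-square per degree of freedom 2.31 to 10.2). The fitting step was tested on simulated counts.

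Members and lists were chosen with earlier results of these data known. The naming rule took all members, up to 3 rising and 3 falling called genes of each list, the 3 genes nearest NLRC5 and genes whose exons overlap a member. The values of a few listed genes are not reported here. Alternatives were other scalings, filters, tools (DESeq2 1.42.0, limma-voom in limma 3.58.1), thresholds, a replicate block, left-out libraries, neighbourhood medians and another gene length.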

Additional observations from a re-analysis of the deposited data

How the results depend on the processing

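The falls of NLRC5, B2M, HLA-B and HLA-C kept their direction under all 16 alternatives to the fit, and their calls under all but the test against a fold of 1.5, which kept NLRC5 alone (NLRC5: largest adjusted p over the alternatives 8.71e-07). That test left 1 member lower and 0 higher, with 1556 genes higher and 1496 lower overall. An adjusted p under 0.01 left 2 members higher. Leaving out 1 library gave 2 to 4 members higher and 4 lower in each case; the 2 came on leaving out SETDB1-KO replicate 2 or control replicate 3, where HLA-E and HLA-G lost their calls. With the neighbourhood median taken out, HLA-E turned to -0.052, USF2 to 0.082 and FCGRT to -0.059 on the log2 scale, and NLRC5, HLA-B and HLA-C stood at -2.26, -0.99 and -1.03; the cause was not tested. Library size alone put the median of all genes at 0.05. Over all genes, same-numbered libraries shared little (correlations of deviations 0.157, -0.0866 and 0.0616), and not every library correlated best with its own number. For HLA-B, HLA-C and HLA-E, however, replicate 1 was the highest library of both groups. The replicate block gave 5864 higher and 5839 lower genes with 4 members each way. With it the edgeR adjusted p of HLA-E was 0.00413, and MICA came past the threshold (adjusted p = 0.0339). Whether same-numbered libraries were handled together is not known. Depth limits NLRC5 (18 to 29 counts per SETDB1-KO library) and HLA-F most.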

Other observations

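The class II genes HLA-DRA and CD74 were too scarce to test, and their reads lay mostly in 1 library. HLA-DRA, the class II alpha chain, had 28, 0 and 4 counts in SETDB1-KO replicates 1, 2 and 3, against 0, 2 and 3 counts in the control replicates. CD74, the invariant chain, had 12, 1 and 1 counts in the SETDB1-KO replicates, against 0, 1 and 5 counts in the control replicates. HLA-DPA1 and HLA-DQB1 had 25 and 27 counts over the SETDB1-KO group and 20 and 14 over the control group. The class I pseudogene HLA-K had 30 counts over the SETDB1-KO group and 4 over the control group. These genes were singled out after their values were seen.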
